A study of Homo sapiens with 4 samples.

Results

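The 40 genes described here are hypoxia-inducible genes outside the glycolytic enzymes, together with the oxygen-sensing machinery that controls them. They were taken by symbol from a table of 58884 genes, and each of the 40 symbols matched 1 Ensembl identifier. The list holds 9 genes of the hypoxia-inducible factor (HIF) system itself, which are its subunits, its oxygen sensors and degradation factors and the feedback gene CITED2, and 31 genes whose transcription is known to respond to low oxygen. Membership is by gene name, and no threshold on a measured value was applied. The list was, however, chosen with earlier results of these data known, so shares set beside all genes describe it and do not test it.

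HIF is a transcription factor made of an oxygen-labile alpha subunit and a constant beta subunit. In normal oxygen, prolyl hydroxylases mark the alpha subunit, the VHL protein binds the mark, and the proteasome destroys the protein; in low oxygen, or when VHL is lost, the alpha subunit persists and HIF binds a short core word in the promoters and enhancers of its targets. The targets act in pH control, vessel growth, mitochondrial removal, collagen assembly and metabolism, and many are induced in the hypoxic regions of solid tumours. HIF activity is set mainly at the protein level, which an RNA measurement does not read.

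RNA sequencing of total RNA was done in 2 cell lines, FTC-133, derived from a follicular thyroid carcinoma, and 8505C, derived from an anaplastic one. Both had been transfected with an empty vector or with a vector that overexpresses CRABP1, cellular retinoic acid binding protein 1. All 4 groups therefore carried a vector, and each group held 1 library. Neither the oxygen level of the cultures nor whether libraries came from separate cultures is stated in the labels, and the vector's promoter is not named there.

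CRABP1 was at 0 TPM (0 reads) in both vector libraries, at 385 TPM (2018 reads) in FTC-133 with the CRABP1 vector and at 537 TPM (2706 reads) in 8505C with it. TPM is a level per gene length, scaled to a total of 1000000 in each library, that can be compared between genes. Against a floor of 3 reads, CRABP1 was at least 694-fold higher in FTC-133 and at least 905-fold higher in 8505C, so the labels fit the targeted gene. The libraries held between 19174560 and 20331463 recovered reads. The mitochondrial genome's own genes held a larger share in the FTC-133 vector library (28.6%) than in its CRABP1 library (25.9%), and the 8505C pair differed less (26.4% and 25.9%). Of 9 thyroid follicular markers, 4 reached 1 TPM in FTC-133 and 2 in 8505C, with summed levels between 141 and 187 TPM; SLC5A5, the iodide transporter, was at 0 in all 4 libraries. Of 6 epithelial markers, 5 reached 1 TPM in FTC-133 and 3 in 8505C. Their summed levels were nevertheless higher in 8505C, between 1833 TPM and 2208 TPM, than in FTC-133, between 343 TPM and 379 TPM. CDH1 was at most 0.241 TPM in FTC-133 and at 0 in 8505C. Summed fibroblast markers were 646 TPM and 385 TPM in FTC-133, COL1A1 and COL1A2 above all, and 7.05 TPM and 12.5 TPM in 8505C. Here and below, the vector library of a line is given first. Summed endothelial markers were between 6.62 TPM and 9.15 TPM in FTC-133 and between 100.7 TPM and 108.5 TPM in 8505C, nearly all of it CDH5. Summed leukocyte markers were under 1 TPM in FTC-133 and 56.8 TPM and 28.9 TPM in 8505C, nearly all of it CD14, with LYZ at 0 in all 4 libraries. HBA1, HBA2 and HBB were at 0 in all 4. In bulk RNA of a cell line, fewer cells that express a gene and less of its RNA per cell cannot be told apart.

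Sequences are shown first for the genes that moved most in FTC-133 by the log2 ratio of TPM + 1. The RefSeq table (GRCh38.p14) held promoters, here 250 bases before to 50 bases after a gene's start, for 31 of the 40 genes, 40 promoters in all because some genes have more than 1 start. The HIF core word was searched as ACGTG or GCGTG on either strand, so also as CACGT or CACGC, and overlapping matches were counted. It was present in 31 of the 40 promoters, or 77.5%, and in 48.45% of all 35116 promoters of the same length. The genes' promoters were also richer in G and C, with a median GC content of 68.5% against 58.67%, and the core word holds CG. In the form ACGTG alone, on either strand, it was in 50% of the genes' promoters and 21.41% of all. A match is a description of the letters in this window and not a measured HIF site.

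The 6 promoters below belong to the 5 genes that were more than 2-fold lower with CRABP1 in FTC-133 and to ADM, the 1 gene that was more than 2-fold higher there. They are printed 5′ to 3′ on the gene's strand, with the core words in capitals.
CA9 promoter, chr9:35673678-35673977, plus strand: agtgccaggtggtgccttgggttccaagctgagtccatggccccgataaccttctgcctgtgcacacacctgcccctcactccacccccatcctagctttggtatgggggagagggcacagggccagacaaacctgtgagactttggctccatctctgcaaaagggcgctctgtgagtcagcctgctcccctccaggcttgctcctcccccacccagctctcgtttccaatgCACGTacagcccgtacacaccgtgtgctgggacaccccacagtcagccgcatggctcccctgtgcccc
ANGPTL4 promoter, chr19:8363905-8364204, plus strand: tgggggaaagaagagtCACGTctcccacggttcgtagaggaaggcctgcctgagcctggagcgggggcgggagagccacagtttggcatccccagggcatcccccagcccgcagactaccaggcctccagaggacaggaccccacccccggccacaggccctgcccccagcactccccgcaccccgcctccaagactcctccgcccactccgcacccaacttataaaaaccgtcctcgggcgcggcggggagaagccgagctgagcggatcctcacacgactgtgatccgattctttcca
BNIP3 promoter, chr10:131981874-131982173, minus strand: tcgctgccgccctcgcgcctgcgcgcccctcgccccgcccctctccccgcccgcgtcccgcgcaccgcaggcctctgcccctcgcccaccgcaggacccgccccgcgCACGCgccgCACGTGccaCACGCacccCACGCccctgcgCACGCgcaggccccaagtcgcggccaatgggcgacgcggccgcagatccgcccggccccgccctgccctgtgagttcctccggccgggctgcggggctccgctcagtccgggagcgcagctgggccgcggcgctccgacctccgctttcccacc
P4HA1 promoter, chr10:73096817-73097116, minus strand: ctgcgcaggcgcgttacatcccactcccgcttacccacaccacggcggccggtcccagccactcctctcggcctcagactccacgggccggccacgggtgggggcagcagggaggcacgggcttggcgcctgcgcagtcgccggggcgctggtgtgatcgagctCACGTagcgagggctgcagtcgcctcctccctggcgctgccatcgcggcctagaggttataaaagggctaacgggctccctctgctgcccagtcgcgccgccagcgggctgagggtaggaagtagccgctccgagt
MIR210HG promoter, chr11:568408-568707, minus strand: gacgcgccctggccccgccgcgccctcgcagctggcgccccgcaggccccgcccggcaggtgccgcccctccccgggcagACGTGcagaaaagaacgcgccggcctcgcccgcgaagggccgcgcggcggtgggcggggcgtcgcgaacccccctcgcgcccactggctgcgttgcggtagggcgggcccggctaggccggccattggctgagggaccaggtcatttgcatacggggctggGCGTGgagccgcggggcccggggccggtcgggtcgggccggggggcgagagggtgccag
ADM promoter, chr11:10304823-10305122, plus strand: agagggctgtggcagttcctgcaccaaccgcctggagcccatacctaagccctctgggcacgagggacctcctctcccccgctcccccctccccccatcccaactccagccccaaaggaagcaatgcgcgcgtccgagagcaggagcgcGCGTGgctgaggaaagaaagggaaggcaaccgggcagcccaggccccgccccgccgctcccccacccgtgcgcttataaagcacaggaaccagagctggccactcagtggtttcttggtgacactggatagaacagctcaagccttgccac

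The single core word of CA9 begins 18 bases upstream of the start, and that of ANGPTL4 begins 234 bases upstream. BNIP3 holds 6 matches between 143 and 104 bases upstream, of which those at 134 and 133 overlap as CACGTG, read on either strand. P4HA1 has 1 match 86 bases upstream. MIR210HG has matches 170 and 9 bases upstream, and ADM has 1 match 101 bases upstream. The 6 genes thus each held the word, the 5 lower ones and ADM alike. It was in a promoter of 25 of the 31 genes with an entry; ARNT, HIF1AN, EGLN3, NRN1, P4HA2 and TMEM45A had none in this window.

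MIR210HG is the host transcript of miR-210, a microRNA known for its induction by HIF. The mature miRNA lies at chr11:568112-568133 on the minus strand and is shown with its seed, bases 2 to 8, in capitals.
hsa-miR-210-3p: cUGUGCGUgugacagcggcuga

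The libraries did not measure the mature miRNA. Its gene MIR210 held 0 reads in both FTC-133 libraries and 1 read in each 8505C library, so only the host transcript is described.

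Within each line, a CRABP1 library was set against its vector library. With 1 library a group there is no replicate error and no p-value within a line. Each gene is given its levels, the log2 ratio of TPM + 1 and, from the recovered reads, a 95% Clopper-Pearson interval of the TPM ratio that covers counting error only. Only genes whose mean over the compared libraries reached 1 TPM entered the counts.

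Most of the hypoxia genes were lower with CRABP1 than with vector in each line, CA9 by the most. In FTC-133, 30 of 39 genes had a log2 ratio below 0, where the background over all genes was 42.2%. The genes' median log2 ratio was -0.33 and that of all 19899 genes 0.06. CA9, MIR210HG, ANGPTL4, P4HA1 and BNIP3 were more than 2-fold lower (5 of 39; background 4.92%), and ADM was more than 2-fold higher (1 of 39; background 6.02%). The counting interval lay below 1 for 26 genes (background 16.5%), above 1 for 8 (background 25.8%) and included 1 for 5.

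In 8505C, 33 of 39 genes had a log2 ratio below 0, where the background was 45.3%, with a median of -0.24 against 0.02 for all 17561 genes. None passed 2-fold in either direction (background 4.07% lower and 3.7% higher). The interval lay below 1 for 26 genes (background 12.7%), above 1 for 3, which were STC2, BNIP3L and CITED2 (background 17.8%), and included 1 for 10. EGLN3 was under the 1 TPM minimum in FTC-133 and NRN1 in 8505C, so each line's count holds 39 of the 40 genes.

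**Figure D1:**
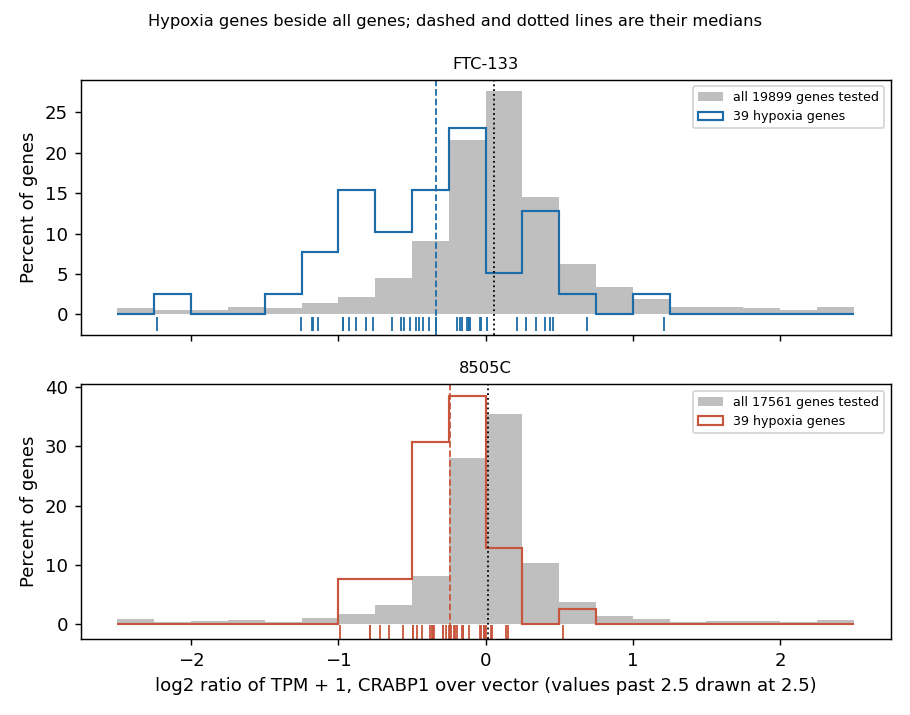
Distribution of the log2 ratio of TPM + 1, CRABP1 over vector, in FTC-133 (top) and 8505C (bottom), as a percent of the genes per bin: grey bars are all genes in the count, the outline is the 39 hypoxia genes and the ticks are single hypoxia genes. The dashed median of the hypoxia genes lies at -0.33 in FTC-133 and -0.24 in 8505C, left of the dotted median of all genes at 0.06 and 0.02.

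Highly measured genes have narrow intervals, so the shares were also taken over coding genes of 20 reads or more, a background chosen after the data were seen. There, 22% of 12769 genes in FTC-133 and 16.1% of 12011 in 8505C had an interval below 1, and 33.9% and 23.3% had one above 1. More than 2-fold lower were 1.46% in FTC-133 and 0.5% in 8505C, and more than 2-fold higher 2.06% and 0.241%. The share with a log2 ratio below 0 was 41.9% and 45.2%. The 9 genes of the HIF system had median log2 ratios of -0.09 in FTC-133 (8 in the count) and -0.11 in 8505C. The 31 HIF-responsive genes had medians of -0.47 and -0.29 (30 in the count in 8505C), so the median shift was smaller in the machinery. The difference between the groups was not tested.

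**Figure D2:**
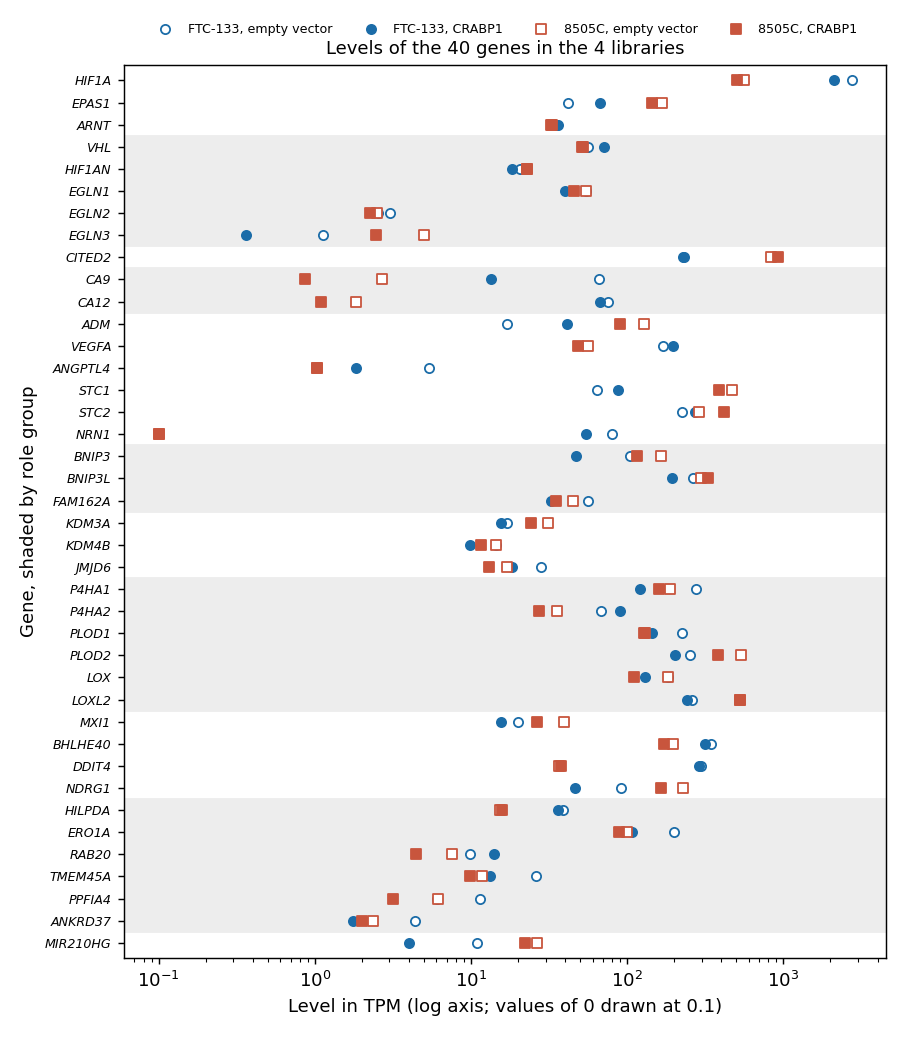
Level of each of the 40 genes in TPM on a log axis, with open symbols for vector and filled symbols for CRABP1, circles for FTC-133 and squares for 8505C; shading separates role groups and levels of 0 are drawn at 0.1. HIF1A is the most abundant gene of the list in FTC-133, at 2731 TPM in the vector library, and NRN1 sits at 0 in both 8505C libraries.

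Of the HIF subunits, HIF1A was above EPAS1 in all 4 libraries, but HIF1A was higher in FTC-133 than in 8505C and EPAS1 the reverse. HIF1A (ENSG00000100644, chr14:61695513-61748259), the HIF-1 alpha subunit, was at 2731 TPM and 2095 TPM in FTC-133, and at 562 TPM and 505 TPM in 8505C. It ranked 28th and 31st of all genes in FTC-133 and 163rd and 185th in 8505C. HIF1A was thus very abundant in FTC-133, and lower with CRABP1 in both lines, 1.303-fold (interval 1.29 to 1.32) and 1.11-fold (1.09 to 1.14). EPAS1 (ENSG00000116016, chr2:46293667-46386703), the HIF-2 alpha subunit, was at 41.5 TPM and 67.3 TPM in FTC-133 and at 167 TPM and 145 TPM in 8505C. With CRABP1 it was higher in FTC-133, with a ratio of 1.62 (1.53 to 1.73), and lower in 8505C, with a ratio of 0.865 (0.834 to 0.897). The level of HIF1A over that of EPAS1 was 65.9 with vector and 31.1 with CRABP1 in FTC-133, and 3.36 and 3.49 in 8505C. ARNT, the beta subunit, lay between 32.3 TPM and 36.2 TPM in all 4 libraries, and its interval included 1 in both lines. The pseudogene HIF1AP1 was at 0 with vector and at 2.17 TPM and 4.51 TPM with CRABP1 in FTC-133 and 8505C, far under HIF1A itself.

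Among the oxygen sensors, EGLN1, the main HIF prolyl hydroxylase and itself a HIF target, was at 54.1 TPM and 40.01 TPM in FTC-133 and at 54.7 TPM and 45.3 TPM in 8505C. It was lower with CRABP1 in both lines, 1.35-fold (1.26 to 1.44) and 1.21-fold (1.13 to 1.29). EGLN3, the most strongly HIF-induced hydroxylase, was at 1.12 TPM and 0.361 TPM in FTC-133, from 45 and 14 reads, and at 4.97 TPM and 2.46 TPM in 8505C, from 186 and 92 reads. The CRABP1 library was the lower of the pair in each line, with log2 ratios of -0.64 and -0.78. The TPM ratio was 0.321 (0.16 to 0.60) in FTC-133 and 0.496 (0.382 to 0.640) in 8505C. Each is past 2-fold on the TPM scale but not on that of TPM + 1. EGLN2, another prolyl hydroxylase, lay between 2.25 TPM and 3.05 TPM, and its interval included 1 in both lines; 30.6% of its exon bases are shared with RAB4B-EGLN2 and AC008537.1 on the same strand, so its counts are uncertain. HIF1AN, the asparagine hydroxylase that blocks coactivator binding, lay between 18.3 TPM and 22.9 TPM. VHL, the substrate receptor of the ligase that destroys HIF alpha, was at 55.8 TPM and 71.0 TPM in FTC-133 and at 51.9 TPM and 51.5 TPM in 8505C. VHL was higher with CRABP1 in FTC-133 (ratio 1.27, 1.18 to 1.37), while in 8505C the interval included 1 (0.912 to 1.08). CITED2, which competes with HIF for its coactivators, was at 228 TPM and 230 TPM in FTC-133 and at 831 TPM and 917 TPM in 8505C. Only the 8505C interval of CITED2 lay above 1 (ratio 1.103, 1.08 to 1.13).

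The carbonic anhydrases CA9 and CA12 are membrane enzymes that regulate pH outside the cell, and CA9 is a widely used marker of HIF-1 activity. CA9 (ENSG00000107159, chr9:35673856-35681159) was at 66.2 TPM (602 reads) and 13.3 TPM (117 reads) in FTC-133, and at 2.69 TPM (23 reads) and 0.858 TPM (7 reads) in 8505C. The CRABP1 library was far the lower in FTC-133, 4.97-fold (4.08 to 6.13), which is the largest difference of the 40 genes; in 8505C it was 3.13-fold lower (1.36 to 9.04). The log2 ratios were -2.23 and -0.99. The 8505C value rests on few reads: with a pseudocount of 0.1 TPM it was -1.54 and CA9 passed 2-fold in that line as well. CA9 shares 38.5% of its exon bases with ARHGEF39 on the opposite strand, which was at 7.40, 8.43, 7.80 and 8.81 TPM in FTC-133 vector, FTC-133 CRABP1, 8505C vector and 8505C CRABP1. The strand setting of the counting is not given in the sources used here, so reads of the pair cannot be told apart, and the levels of CA9 in 8505C lie under those of ARHGEF39. CA12 was at 75.8 TPM and 67.0 TPM in FTC-133 and at 1.83 TPM and 1.099 TPM in 8505C. The CRABP1 level was the lower one in each line, 1.13-fold (1.07 to 1.19) and 1.66-fold (1.11 to 2.499).

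The secreted factors did not move together. ADM (ENSG00000148926, chr11:10304680-10307397), the vasodilator peptide adrenomedullin, was at 17.1 TPM and 40.8 TPM in FTC-133 and at 128 TPM and 90.5 TPM in 8505C. With CRABP1 it was 2.39-fold higher in FTC-133 (2.06 to 2.78) and 1.41-fold lower in 8505C (1.31 to 1.52). VEGFA, the main vessel growth factor, was at 170 TPM and 198 TPM in FTC-133 and at 56.2 TPM and 48.4 TPM in 8505C. Its ratios were 1.16 (1.13 to 1.19) and 0.861 (0.823 to 0.900), so again the lines went opposite ways. STC1, the glycoprotein hormone stanniocalcin-1, was at 64.0 TPM and 86.9 TPM in FTC-133 and at 471 TPM and 386 TPM in 8505C. STC1 showed that same pattern, with ratios of 1.36 (1.27 to 1.46) and 0.819 (0.795 to 0.843).

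STC2, its paralog, was at 224 TPM and 271 TPM in FTC-133 and at 288 TPM and 416 TPM in 8505C. It was the only gene of the list with an interval above 1 in both lines, at ratios of 1.21 (1.17 to 1.25) and 1.44 (1.41 to 1.48). STC2 is also a known target of ATF4, the transcription factor of the amino acid response. Of 21 genes of an ATF4 list, 20 had log2 ratios above 0 in each line, with medians of 0.56 in FTC-133 and 0.64 in 8505C. Over all genes, 42.2% in FTC-133 and 45.3% in 8505C were below 0. In FTC-133, 1 of the 21 was more than 2-fold higher, TRIB3 at 1.13 (background 6.02%). In 8505C it was 6, among them CHAC1 at 3.04 (background 3.7%). The part of that response in the STC2 values was not tested. ANGPTL4 (ENSG00000167772, chr19:8363289-8374373), a secreted inhibitor of lipoprotein lipase, was at 5.42 TPM (73 reads) and 1.84 TPM (24 reads) in FTC-133. It was 2.95-fold lower with CRABP1 there (1.84 to 4.89). In 8505C ANGPTL4 was at 1.03 TPM and 1.036 TPM, from 13 reads each, and a difference was not detectable at this depth (ratio 0.428 to 2.35). NRN1, neuritin, a secreted neurotrophic factor, was at 79.9 TPM and 54.1 TPM in FTC-133, 1.48-fold lower with CRABP1 (1.34 to 1.63). In 8505C it had 0 reads in both libraries, which allows up to 0.253 TPM with vector and 0.254 TPM with CRABP1.

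The mitophagy genes were lower in FTC-133 throughout. BNIP3 (ENSG00000176171, chr10:131966455-131982013), a receptor that marks mitochondria for autophagy, was at 105 TPM and 46.9 TPM in FTC-133 and at 164 TPM and 116 TPM in 8505C. It was lower with CRABP1 in both lines, 2.23-fold (2.09 to 2.38) and 1.41-fold (1.35 to 1.48). BNIP3 has many processed pseudogenes; the most abundant, BNIP3P4 and BNIP3P11, reached 2.68 TPM and 2.44 TPM in their highest libraries, and reads split between the copies would make the BNIP3 level uncertain. BNIP3L, its paralog with the same role, was at 264 TPM and 192 TPM in FTC-133 and at 296 TPM and 329 TPM in 8505C. The paralogs thus differed in 8505C: BNIP3L was 1.37-fold lower in FTC-133 (1.32 to 1.43) but had a ratio of 1.11 (1.08 to 1.15) in 8505C. FAM162A, a mitochondrial protein linked to hypoxic cell death, was at 56.1 TPM and 32.6 TPM in FTC-133 and at 45.0 TPM and 35.0 TPM in 8505C, 1.72-fold (1.56 to 1.90) and 1.28-fold (1.16 to 1.42) lower. The share of mitochondrially encoded RNA was also lower with CRABP1 in FTC-133, as given above. With those genes removed and TPM rescaled, 7 of 40 hypoxia genes were more than 2-fold lower and 1 higher in FTC-133, while over all genes the counts also rose, to 1403 of 21608 lower and 1575 higher. The part of the mitochondrial share in these results was not tested.

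The dioxygenases are enzymes that need oxygen themselves. KDM3A, a histone H3 lysine 9 demethylase, was at 17.1 TPM and 15.6 TPM in FTC-133 and at 31.2 TPM and 24.02 TPM in 8505C. KDM4B, another histone demethylase, was at 14.5 TPM and 9.84 TPM in FTC-133 and at 14.4 TPM and 11.6 TPM in 8505C. JMJD6, an arginine demethylase and lysyl hydroxylase, was at 27.9 TPM and 18.4 TPM in FTC-133 and at 16.9 TPM and 13.0 TPM in 8505C. All 3 were lower with CRABP1 in both lines with intervals below 1; the log2 ratios ran from -0.58 to -0.12 in FTC-133 and from -0.36 to -0.29 in 8505C.

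Of 6 enzymes of collagen modification, 5 were lower in FTC-133 and 4 in 8505C by the interval, where the backgrounds given above were 16.5% and 12.7% of all genes. P4HA1 (ENSG00000122884, chr10:73007217-73096974), a catalytic subunit of the collagen prolyl hydroxylase, was at 274 TPM and 121 TPM in FTC-133 and at 189 TPM and 160 TPM in 8505C. CRABP1 cells had the lower level in each line, 2.26-fold in FTC-133 (2.14 to 2.38) and 1.18-fold in 8505C (1.12 to 1.24). P4HA2, the alternative catalytic subunit, was at 67.6 TPM and 89.7 TPM in FTC-133 and at 35.6 TPM and 27.1 TPM in 8505C. The 2 subunits moved in opposite directions in FTC-133, where the P4HA2 ratio was 1.33 (1.26 to 1.39), and both were lower in 8505C, where it was 0.762 (0.705 to 0.823). PLOD1, a lysyl hydroxylase, was at 223 TPM and 143 TPM in FTC-133 and at 130 TPM and 127 TPM in 8505C. PLOD2, the telopeptide lysyl hydroxylase that sets cross-link type, was at 254 TPM and 201 TPM in FTC-133 and at 538 TPM and 382 TPM in 8505C. PLOD1 was lower in FTC-133 (1.56-fold, 1.497 to 1.62) and its 8505C interval included 1, and PLOD2 was lower in both lines (1.26-fold and 1.41-fold). LOX, lysyl oxidase, which cross-links collagen and elastin, was at 182 TPM and 131 TPM in FTC-133 and at 182 TPM and 110 TPM in 8505C. LOX was at near equal levels in the 2 vector libraries and lower with CRABP1 in both lines, 1.39-fold (1.33 to 1.45) and 1.65-fold (1.58 to 1.72). LOXL2, a related oxidase, was at 262 TPM and 241 TPM in FTC-133 and at 530 TPM in both 8505C libraries. COL1A1, a substrate of these enzymes and a fibroblast marker, was at 388 TPM and 174 TPM in FTC-133 and 1.22 TPM and 0.743 TPM in 8505C; its part in these values was not tested.

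Among repressors and growth-restraining genes, NDRG1, a stress-responsive growth suppressor, was at 91.6 TPM and 46.3 TPM in FTC-133 and at 228 TPM and 165 TPM in 8505C. It was lower with CRABP1 in both lines, 1.98-fold (1.89 to 2.08) and 1.38-fold (1.34 to 1.42). MXI1, a MYC antagonist, was at 19.9 TPM and 15.6 TPM in FTC-133 and at 39.4 TPM and 26.3 TPM in 8505C. Its CRABP1 level was also the lower in each line, with log2 ratios of -0.33 and -0.56. BHLHE40, a basic helix-loop-helix repressor, was at 341 TPM and 316 TPM in FTC-133 and at 196 TPM and 172 TPM in 8505C, a small difference with intervals below 1. DDIT4, an inhibitor of mTORC1, was at 295 TPM and 288 TPM in FTC-133 and at 36.8 TPM and 37.9 TPM in 8505C, and its interval included 1 in both lines. DDIT4 shares 41.2% of its exon bases with DDIT4-AS1 on the opposite strand, which was listed at 0 in all 4 libraries.

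The remaining coding genes act on lipid droplets, the endoplasmic reticulum and trafficking, or have less settled roles. ERO1A, the oxidase that recharges disulfide bond formation, was at 198 TPM and 107 TPM in FTC-133 and at 98.9 TPM and 88.3 TPM in 8505C. TMEM45A, a transmembrane protein, was at 25.9 TPM and 13.2 TPM in FTC-133 and at 11.8 TPM and 9.79 TPM in 8505C. PPFIA4, a liprin, was at 11.3 TPM and 6.05 TPM in FTC-133 and at 6.14 TPM and 3.15 TPM in 8505C. All 3 were lower with CRABP1 in both lines; ERO1A and TMEM45A were 1.85-fold and 1.97-fold lower in FTC-133 and 1.12-fold and 1.21-fold in 8505C, whereas PPFIA4 was 1.88-fold and 1.95-fold lower. ANKRD37, an ankyrin repeat protein, was at 4.40 TPM (62 reads) and 1.77 TPM (24 reads) in FTC-133 and at 2.36 TPM (31 reads) and 2.01 TPM (26 reads) in 8505C. It was 2.49-fold lower in FTC-133 on the TPM scale (1.54 to 4.20), or -0.97 as a log2 ratio of TPM + 1, and 35.2% of its exon bases lie opposite UFSP2, which was between 39.1 TPM and 45.3 TPM. RAB20, a small GTPase of vesicle transport, was at 9.87 TPM (82 reads) and 13.96 TPM (112 reads) in FTC-133. In 8505C it was at 7.57 TPM (58 reads) and 4.45 TPM (34 reads). Its ratios were 1.41 (1.05 to 1.90) and 0.588 (0.373 to 0.913), with the FTC-133 interval close to 1. HILPDA, a lipid droplet protein that inhibits lipolysis, was at 39.0 TPM and 36.3 TPM in FTC-133 and at 15.3 TPM and 15.7 TPM in 8505C, and its interval included 1 in both lines. HILPDA shares 13.2% of its exon bases with AC010655.2 and AC010655.4 on the same strand, which held at most 2 reads.

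MIR210HG (ENSG00000247095, chr11:565660-568457), the only noncoding gene of the list, was at 10.9 TPM (138 reads) and 4.001 TPM (49 reads) in FTC-133 and at 26.5 TPM (313 reads) and 22.3 TPM (262 reads) in 8505C. The FTC-133 difference was 2.73-fold (1.96 to 3.86) and the 8505C difference 1.19-fold (1.01 to 1.41). It was thus lower with CRABP1 in both lines, with the 8505C interval close to 1.

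**Figure D3:**
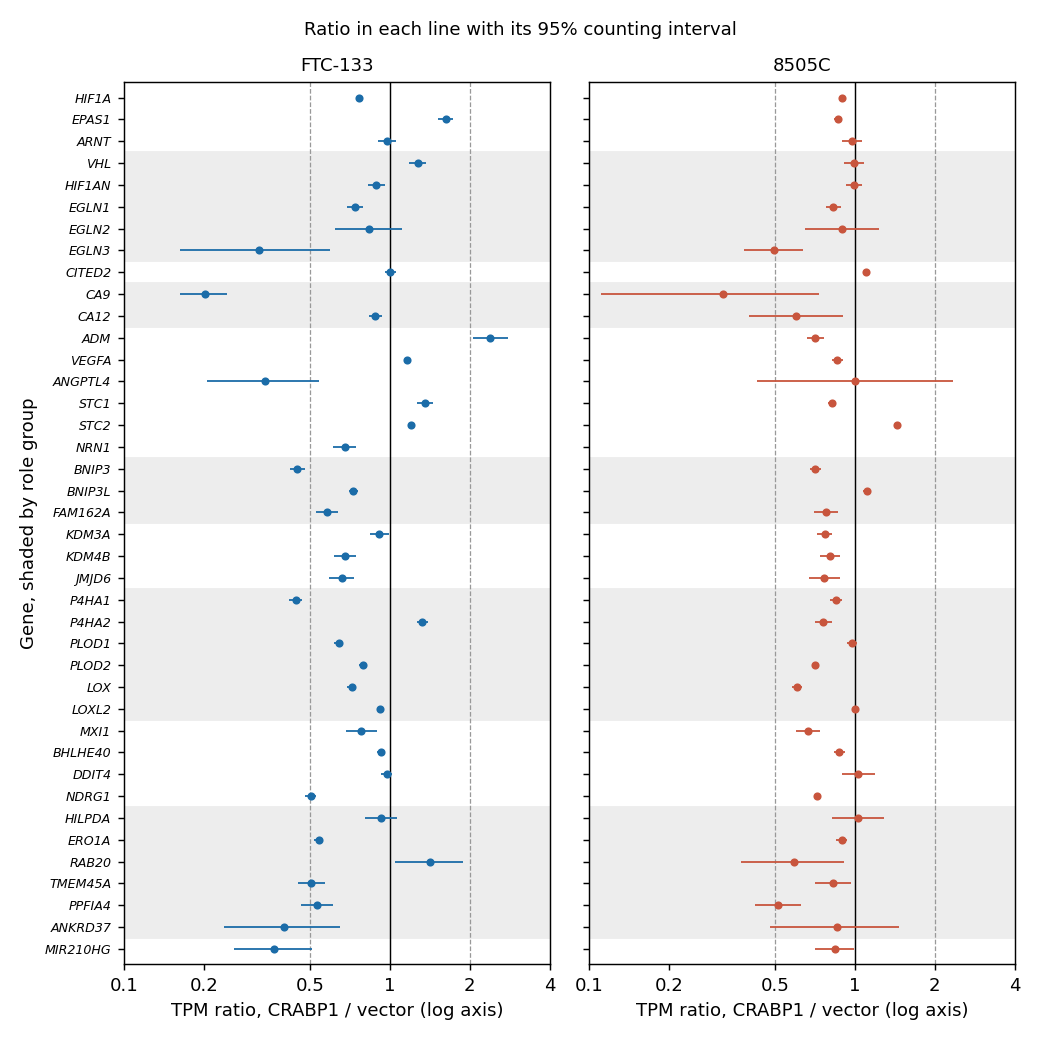
TPM ratio of the CRABP1 to the vector library on a log axis for each gene in FTC-133 (left) and 8505C (right), with bars for the 95% counting interval and dashed lines at 0.5 and 2; NRN1 has no point in 8505C because both libraries were at 0. CA9 lies farthest left in both lines, at 0.201 and 0.319, and ADM farthest right in FTC-133, at 2.39.

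Of the 38 genes in the counts of both lines, 19 had an interval below 1 in both (background 3.48%). They were HIF1A, EGLN1, CA9, CA12, BNIP3, FAM162A, KDM3A, KDM4B, JMJD6, P4HA1, PLOD2, LOX, MXI1, BHLHE40, NDRG1, ERO1A, TMEM45A, PPFIA4 and MIR210HG. STC2 alone lay above 1 in both (background 7.02%). A further 6 genes, EPAS1, ADM, VEGFA, STC1, P4HA2 and RAB20, were above 1 in FTC-133 and below 1 in 8505C (background 4.59%), and BNIP3L was the reverse (background 4.65%). Over coding genes of 20 reads or more, these 4 backgrounds were 4.45%, 9.08%, 5.89% and 6.13%. The log2 ratio was below 0 in both lines for 25 genes (background 19.4%, and 19.1% of the coding genes); in 18 of these the FTC-133 value was the lower and in 7 the 8505C value. Over the 38 genes, which share libraries and depth within a line, the ratios of the 2 lines had a Pearson r of 0.29 and a Spearman rho of 0.20, given as a description.

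**Figure D4:**
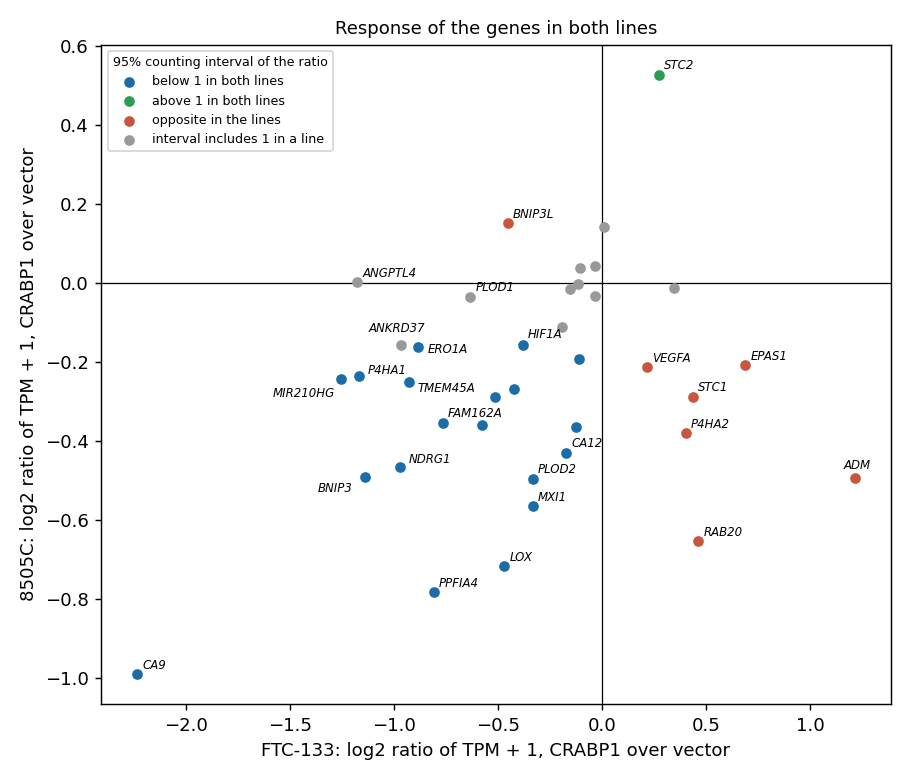
Log2 ratio of TPM + 1, CRABP1 over vector, in FTC-133 (x axis) and 8505C (y axis) for the 38 genes in the counts of both lines, coloured by where the 95% counting interval lies. The 19 blue genes fill the lower left, and the 6 genes at the lower right, ADM farthest at 1.21 and -0.49, have opposite directions in the lines.

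A list of NF-kB and inflammatory genes had opposite directions in the lines as well, like those 6 genes. This list too was chosen with earlier results of these data known. In FTC-133, 20 of 21 had log2 ratios above 0 and 14 were more than 2-fold higher (background 6.02%). Their median was 1.40, and CXCL8 had 3.17. In 8505C, 19 of 19 were below 0 (background 45.3%) and 4 were more than 2-fold lower (background 4.07%). Their median was -0.56, and CXCL2 had -1.62. The part of that list's genes in the values of ADM, VEGFA, STC1, EPAS1, P4HA2 and RAB20 was not tested.

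Over both lines together, limma was fitted to all 19513 genes that averaged 1 TPM or more, with the lines acting as replicates and 1 residual degree of freedom. No hypoxia gene was called for CRABP1 minus vector after Benjamini-Hochberg adjustment (0 of 40; smallest adjusted p = 0.920; background 0.00512%, which is CRABP1 itself). By unadjusted limma p under 0.05, 11 of 40 genes passed (10 lower and 1 higher, STC2), where 4.73% of all genes did and 1.89% were lower. Without a variance trend 6 of 40 passed, beside 949 of all 19513 genes. Without the term for line 1 of 40 passed, beside 158 of all 19513 genes. In the main fit the smallest was that of LOX, with a log2 difference of -0.59 ± 0.11 (SE) and an unadjusted limma p of 0.00739, lower in both lines. BNIP3 differed by -0.82 ± 0.19 and CA9 by -1.61 ± 0.36 (SE, limma). Over the alternatives run, the smallest adjusted limma p of the 40 genes lay between 0.844 and 1, and none was called. A p that misses the threshold does not show that a level was equal.

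Between the lines, by contrast, limma called most of the genes. For 8505C minus FTC-133, limma called 24 of the 40 genes (13 higher and 11 lower in 8505C), beside a background of 35.2% of all genes (13% higher, 22.2% lower). Here the vector and CRABP1 libraries of a line act as its replicates, so the error does not include variation between cultures of 1 line. Without the filter on low values 5 of the 40 were called, beside 1182 of all 36025 genes. Without a variance trend 13 of the 40 were called, beside 4589 of all 19513 genes.

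STC1 was 5.67-fold higher in 8505C by its mean TPM, with a log2 difference of 2.498 ± 0.21 (SE; limma adjusted p = 0.0079). CITED2 was 3.81-fold higher (1.92 ± 0.10, limma adjusted p = 0.00447) and NDRG1 2.85-fold higher (1.56 ± 0.16, limma adjusted p = 0.0106). MIR210HG, EPAS1, ADM and EGLN3 were also called higher, by log2 differences of 1.71, 1.54, 1.98 and 1.42. At the other end, NRN1 was lower in 8505C than its FTC-133 mean of 67.0 TPM by at least 263.5-fold, the smaller bound of the 2 libraries against a floor of 3 reads in each. CA12 was 48.8-fold higher in FTC-133 (limma adjusted p = 0.00336), CA9 22.4-fold (adjusted p = 0.0105), DDIT4 7.81-fold (adjusted p = 0.00336) and HIF1A 4.52-fold (adjusted p = 0.00495), all by limma.

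Some genes were near equal between the lines: EGLN1 at 47.1 TPM and 50.0 TPM as means, LOX at 156 TPM and 146 TPM, and ARNT at 35.8 TPM and 32.7 TPM, in FTC-133 and 8505C. None of these 3 was called by limma. Summed over the 40 genes the level was 6668 TPM and 5384 TPM in FTC-133 and 5520 TPM and 5077 TPM in 8505C. HIF1A alone made up the excess of FTC-133: without it the sums were 3937 TPM, 3288 TPM, 4957 TPM and 4573 TPM. The CRABP1 library had the lower sum in each line either way.

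**Figure D5:**
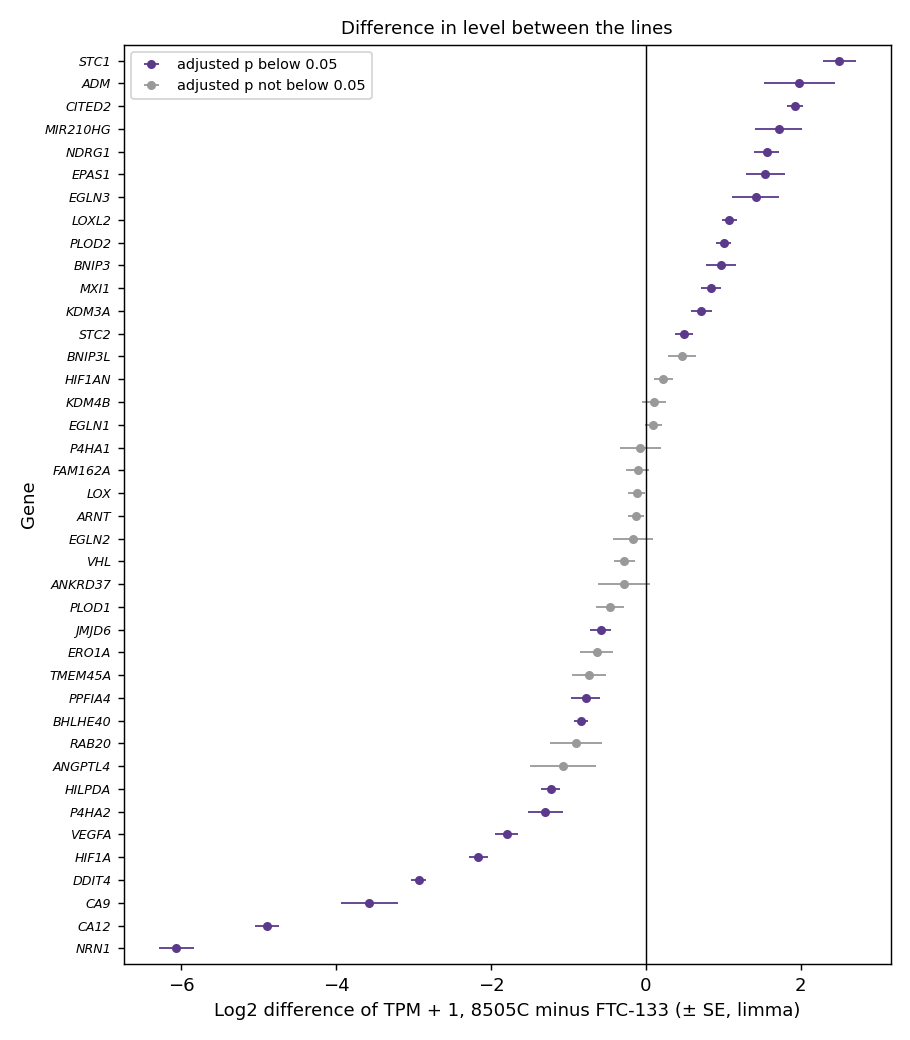
Log2 difference of TPM + 1 between 8505C and FTC-133 for each of the 40 genes, with the standard error from limma over 4 libraries; purple genes have an adjusted p below 0.05. STC1 lies highest at 2.498, NRN1 lowest at -6.06, and 24 genes are purple.

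Other genes of the pathway give the setting. Of 21 HIF partners, cofactors and degradation factors in the FTC-133 count, 10 had log2 ratios below 0 and none passed 2-fold, with a median of 0.09; in 8505C it was 9 of 20 with a median of 0.02. A list of 40 further hypoxia-responsive genes had 35 in the count of each line. In FTC-133, 20 of these were below 0, with a median of -0.12. More than 2-fold lower were 2 (IGFBP3 at -1.74 and CXCL12 at -1.52), where the background was 4.92%. More than 2-fold higher were 2 (MAFF at 1.042 and EDN1 at 1.01), where the background was 6.02%. Both counts were thus near the share of all genes. In 8505C, 23 were below 0, none passed 2-fold and the median was -0.15. The glycolysis and glucose supply genes had 23 of 25 below 0 in each line, with medians of -0.49 and -0.21. SLC2A1, a glucose transporter, had -1.68 in FTC-133. Over all genes, 42.2% in FTC-133 and 45.3% in 8505C were below 0.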

How the data were processed

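RNA from 4 libraries was analysed. The authors deposited 1 table of TPM values, each column summing to 1000000. The reads had been checked with FastQC, trimmed with Trimmomatic 0.38 and counted with featureCounts 2.0.0 on GRCh38, per the submitters' processing notes. Not given in the sources used here are the aligner, annotation and strand setting. The 40 genes and all gene lists were chosen with earlier results of these data known, and every member is named. Names came from a reference table, positions and lengths from GENCODE 29 (GRCh38).

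TPM multiplied by GENCODE 29 union exon length gave whole multiples of a library-specific step for 90.52% to 91.6% of values of up to 50 reads (74.07% to 75.82% of all values, within 0.02 of a read). The nearest whole number served as reads; for 20 of the 40 genes it was not whole in every library. Intervals and floors of 3 reads cover counting error only. Ratios used log2(TPM + 1), which understates changes of low genes, and a 2-fold rule.

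Both effects were fitted with limma 3.58.1 in R 4.3.3 (variance trend, terms for line and transfection, two-sided, Benjamini-Hochberg at 0.05), tested first on simulated data. The p-values then reflect just the spread among these 4 libraries, which may be technical or a response that differs between the lines. Python 3.11.15, pandas 2.3.3 and SciPy 1.17.1 did the rest. Alternatives covered the pseudocount, filters, scaling, mitochondrial genes, fold rule, trend and model terms.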

Additional observations from a re-analysis of the deposited data

Results flagged for a closer look

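In 7 genes the CRABP1 library differed from its vector library in opposite directions in the 2 lines, with counting intervals that excluded 1 in each line. The difference between the lines was not tested, since each group held 1 library. The log2 ratio of TPM + 1 was 0.69 in FTC-133 and -0.21 in 8505C for EPAS1, and 1.21 and -0.49 for ADM. It was 0.21 and -0.21 for VEGFA, and 0.44 and -0.29 for STC1. For P4HA2 it was 0.4 and -0.38, and for RAB20 0.46 and -0.65. BNIP3L went the other way, with -0.45 in FTC-133 and 0.15 in 8505C.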

How the results depend on the processing

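With 1 library per group, no library could be left out within a line. The labels carry no replicate numbers, and the limma fit compares the libraries within each line through its term for line. Within the lines, the log2 ratio of 2 genes near 0 changed sign: CITED2 in FTC-133 (0.01, and -0.06 with median-ratio scaling) and ANGPTL4 in 8505C (0.00, and -0.01). Limma differences that changed sign were all of genes not called. Median-ratio scaling moved the median of all genes in FTC-133 from 0.06 to -0.01, and the hypoxia genes' median from -0.33 to -0.40. Low read numbers limit CA9, ANGPTL4 and ANKRD37 in 8505C, EGLN3 in FTC-133 and RAB20 in both lines.

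In 8505C, 1 of 39 hypoxia genes (CA9) was more than 2-fold lower with a pseudocount of 0.1 TPM, with median-ratio scaling and without mitochondrially encoded genes, against 0 as reported. Over all genes these settings gave 985 of 17561, 785 of 17857 and 1021 of 19001 lower. With a 1.5-fold rule, 12 hypoxia genes were lower and 2 higher in FTC-133, and in 8505C 5 were lower. Over all genes that rule gave 1928 lower and 2598 higher in FTC-133, and for 8505C 1341 lower and 1297 higher, against 979, 1198, 715 and 649 with the 2-fold rule. A minimum mean of 5 TPM gave 237, 354, 121 and 97 in the same order. Coding genes of 20 reads or more, a restriction chosen after the data were seen, gave 187, 263, 60 and 29. No filter gave 1162 lower and 1117 higher in 8505C.

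The limma call of CRABP1 itself was lost (0 genes) with a pseudocount of 0.1 TPM, no filter, median-ratio scaling, no mitochondrially encoded genes, no variance trend and no term for line, with smallest adjusted p-values of 0.102, 0.844, 0.137, 0.268, 0.807 and 0.209. Calls for 8505C minus FTC-133 numbered 1182 of all genes and 5 hypoxia genes without a filter. Without a variance trend they numbered 4589 of all genes and 13 hypoxia genes. The cause was not tested.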
